A study of Mus musculus with 6 samples.

Results

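Lhx1, Pax2, Pax8, Gata3 and Emx2 encode transcription factors needed to form or extend the nephric duct, which becomes the Wolffian duct. They were chosen by gene symbol, and all 5 were found among the 20033 genes of the deposited table. Mesonephroi of 6 male mice were taken at E12.5 for RNA sequencing. Of these, 3 were controls, called heterozygous by one label and Wnt9b+/+ by the design text, and 3 were Wnt9b-/- from a global knockout, with no litter, strain or allele named. Levels are in TPM, a unit of transcript abundance that corrects for gene length and library size, so that different genes can be set side by side. The labels number the mice 1 to 3 in each group.

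The mesonephros is a kidney that serves the embryo for a time, crossed by the duct that gives rise to the epididymis and vas deferens. Pax2 and Pax8 are paired-domain factors that together specify the nephric lineage and act upstream of Lhx1 and Gata3. Lhx1 is a LIM-homeodomain factor needed in the duct and in the tubules that form beside it. Gata3 is a zinc-finger factor that guides the duct and maintains expression of the receptor gene Ret. Emx2 is a homeodomain factor of the urogenital epithelium, and it is also expressed in the coelomic epithelium of the gonad. Wnt9b is a Wnt ligand secreted by the duct epithelium.

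Lhx1 lies head to head with the long noncoding RNA gene Lhx1os. Emx2 has the noncoding neighbour Emx2os, whose start was not compared with that of Emx2. Both upstream windows are shown because the levels of these gene pairs are compared further on. Each covers the 250 bases before the RefSeq start of the gene in build GRCm38.p6, printed on the strand of the gene. The Lhx1 window is chr11:84525535-84525784 on the minus strand, and the Lhx1os start lies 126 bases from that of Lhx1, inside this window and on the opposite strand. The Emx2 window is chr19:59458440-59458689 on the plus strand. Capitals mark matches to CCAATCA or its reverse complement, the core of the CCAAT box.
Lhx1: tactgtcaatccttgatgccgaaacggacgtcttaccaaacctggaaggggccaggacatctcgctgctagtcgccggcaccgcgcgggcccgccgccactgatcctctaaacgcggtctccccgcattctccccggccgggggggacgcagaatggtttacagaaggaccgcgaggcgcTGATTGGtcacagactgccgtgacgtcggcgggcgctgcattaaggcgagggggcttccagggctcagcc
Emx2: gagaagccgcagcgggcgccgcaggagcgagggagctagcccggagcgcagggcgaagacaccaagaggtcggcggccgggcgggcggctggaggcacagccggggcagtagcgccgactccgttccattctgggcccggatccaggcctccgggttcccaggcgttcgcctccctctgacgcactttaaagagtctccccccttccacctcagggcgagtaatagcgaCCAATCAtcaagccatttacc
Each window holds 1 CCAAT match, as do 7.23% of the 32851 windows of that length in the table, and this motif was chosen after the windows had been read. Neither window holds a TCF/LEF core (CTTTGA or CTTTGT on either strand; 27.6% of all windows), a GATA motif (AGATAA or TGATAA; 16.6%) or the homeodomain motif TAATTA (4.84%). No match says only that these letters are not in the window. The GC content is 64.8% for Lhx1 and 67.2% for Emx2, against a median of 52.4% over all windows.

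Wnt9b itself was measured at 24.9, 26.4 and 34.0 TPM in controls 1 to 3 and at 23.4, 19.2 and 19.0 TPM in knockouts 1 to 3. The knockouts lay below the controls without overlap, but the difference did not pass (-0.44 in log2, SE 0.14; adjusted p = 0.266 by limma). In the authors' deposited table Wnt9b has a log2 fold change of -0.455 (adjusted p = 0.0263), and 2.17% of the genes there are called lower. The deleted stretch is not given in the sources used here, so a value over the whole gene is a weak check of the labels. Reads in genes, as lower bounds, numbered 28687415 to 33574278 per library. Knockout 3 stood apart: its log2 levels correlated with those of knockouts 1 and 2 at r = 0.9752 and 0.9771 across genes, against 0.9837 between knockouts 1 and 2. Over all 17577 genes tested, 78 differed between the groups with limma on the log2(TPM + 1) scale (Benjamini-Hochberg adjusted p below 0.05), and 243, or 1.38%, did without knockout 3. Without control 1, 2 or 3 the number was 28, 13 or 14, and without knockout 1 or 2 it was 33 or 23.

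Lhx1 was the 1 factor of the 5 that passed the test. Its level (ENSMUSG00000018698) was 27.4, 22.6 and 21.9 TPM in controls 1, 2 and 3 and 10.3, 9.39 and 7.42 TPM in knockouts 1, 2 and 3. Every knockout lay below every control, and the knockout values were 42.9%, 39.2% and 30.9% of the control mean. The mean fell from 24.0 ± 2.99 to 9.03 ± 1.46 TPM (SD, n = 3), a log2 difference of -1.32 on the log2(TPM + 1) scale (SE 0.15, 95% interval -1.66 to -0.98; limma adjusted p = 0.0123). Of all tested genes, 0.444% were called, 0.313% as lower and 0.131% as higher. The groups did not overlap for 16.6% of genes, 8.49% with the knockouts lower and 8.14% with them higher. By p-value Lhx1 ranked 22 among the 17577 genes. In a piece of whole tissue, fewer Lhx1-expressing cells and less Lhx1 RNA per cell cannot be told apart.

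The reads recovered for Lhx1 were 1086, 759 and 717 in the controls and 385, 321 and 253 in the knockouts. Counting error alone was thus at most 6.3%, below the coefficient of variation of 16.2% between the knockout embryos. In the authors' deposited table Lhx1 has a log2 fold change of -1.40 (adjusted p = 3.06e-15), and 3.55% of the genes there with an adjusted p have one below 0.05, 2.17% as lower and 1.38% as higher. With 1 embryo omitted, the limma adjusted p of Lhx1 was 0.0569, 0.0791 or 0.0610 when control 1, 2 or 3 was dropped, and 0.0302, 0.0597 or 0.0152 when knockout 1, 2 or 3 was dropped. The call was thus lost in 4 of 6 omissions. The log2 difference stayed between -1.41 and -1.20 in these omissions.

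The 2 paired-domain factors were lower on average and did not pass. Pax2 (ENSMUSG00000004231) was at 20.6, 23.6 and 25.2 TPM in controls 1 to 3 and at 25, 18.8 and 14.5 TPM in knockouts 1 to 3. Knockout 1 lay within the control range and knockouts 2 and 3 below it. The log2 difference was -0.27 (SE 0.18, 95% interval -0.68 to 0.15; limma adjusted p = 0.647). Pax8 (ENSMUSG00000026976) was at 23.7, 24.0 and 21.0 TPM in the controls, against 16.3, 19.1 and 21.2 TPM in the knockouts. Here knockout 1 was lowest, and knockout 3 alone reached the control range. The log2 difference was -0.27 (SE 0.12, 95% interval -0.54 to 0.00055; limma adjusted p = 0.445, unadjusted p = 0.0504).

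Gata3 and Emx2 had the smallest differences. Gata3 (ENSMUSG00000015619) was at 20.8, 22.9 and 23.7 TPM in the controls, against 32.0, 22.7 and 16.4 TPM in the knockouts. Knockout 1 was above all controls, knockout 2 among them and knockout 3 below them, a coefficient of variation of 33.2% against 6.64% in controls. The log2 difference was 0.027 (SE 0.21, 95% interval -0.45 to 0.50; limma adjusted p = 0.977). It was -0.21 without knockout 1, -0.025 without control 1 and 0.26 without knockout 3 (limma adjusted p = 0.752, 0.983 and 0.439), so its sign rests on single embryos. Emx2 (ENSMUSG00000043969) was at 128, 136 and 149 TPM in the controls, against 133, 133 and 121 TPM in the knockouts, groups that overlap. Its log2 difference was -0.092 (SE 0.076, 95% interval -0.27 to 0.084; limma adjusted p = 0.719).

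**Figure D1:**
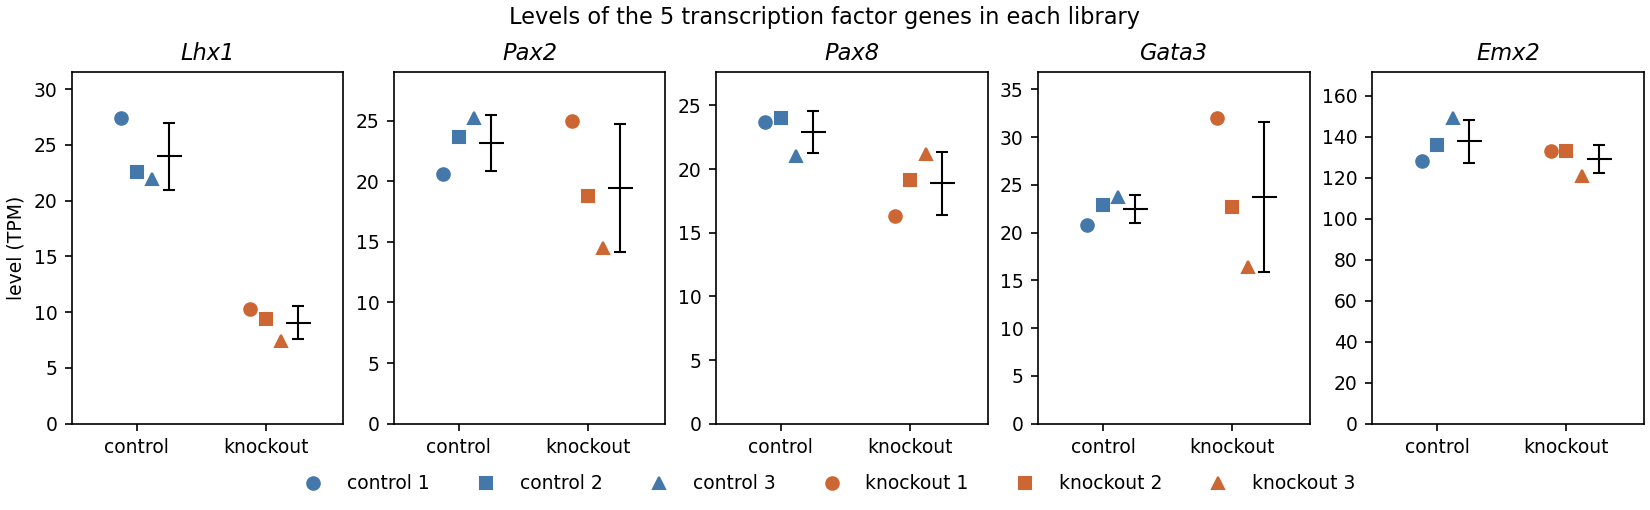
Level in TPM (vertical axis, from 0) of each gene in the 3 controls (blue) and 3 knockouts (orange); circles, squares and triangles are embryos 1, 2 and 3, and black bars are mean ± SD. The Lhx1 values of the knockouts, 7.42 to 10.3 TPM, sit below all controls, and the other 4 genes overlap between groups.

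Emx2 was the most abundant of the 5 in each of the 6 libraries, at 138 ± 10.8 TPM in the controls, and 129 ± 7.10 TPM in knockouts (SD, n = 3). In the controls the other 4 had means of 24.0 ± 2.99 (Lhx1), 23.1 ± 2.36 (Pax2), 22.9 ± 1.65 (Pax8) and 22.4 ± 1.49 TPM (Gata3), differences smaller than the SD of Lhx1. Their order was not the same in any pair of control libraries, and Lhx1 was the second, the fifth and the fourth of the 5 in controls 1, 2 and 3. In all 3 knockouts Lhx1 was the lowest of the 5, below Pax8 at 18.9 ± 2.47, Pax2 at 19.4 ± 5.25 and Gata3 at 23.7 ± 7.87 TPM.

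Setting Lhx1 against each partner within a library removes any factor that the 2 genes share in that library. The TPM ratio of Lhx1 to Pax2 was 1.33, 0.958 and 0.87 in controls 1 to 3 and 0.412, 0.5 and 0.51 in knockouts 1 to 3. To Pax8 it was 1.16, 0.941 and 1.04 in controls and 0.631, 0.491 and 0.35 in knockouts. The control libraries thus held these genes at similar levels, and each knockout held less Lhx1 than either partner. To Gata3 the ratio was 1.32, 0.986 and 0.928 in controls and 0.321, 0.414 and 0.454 in knockouts. To Emx2 it was 0.215, 0.165 and 0.147 in controls and 0.077, 0.0707 and 0.0614 in knockouts. For all 4 partners the groups did not overlap.

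On the log2(TPM + 1) scale, the ratio to Pax2 averaged 0.048 ± 0.31 in controls and -1.0 ± 0.17 in knockouts (SD, n = 3), a difference of -1.05. The corresponding differences were -1.05 for Pax8, -1.35 for Gata3 and -1.23 for Emx2. Each had p = 0.1 in a two-sided exact permutation test and 0.1 after adjustment over the 4 ratios, which is the smallest p that 3 against 3 allows, so this design cannot place them below 0.05. Knockout 1 had the smallest Lhx1 share relative to Gata3 and Pax2 and the largest relative to Pax8. The 95% intervals of the 4 partners reached down to -0.68 at most, and that of Lhx1 reached up to -0.98.

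**Figure D2:**
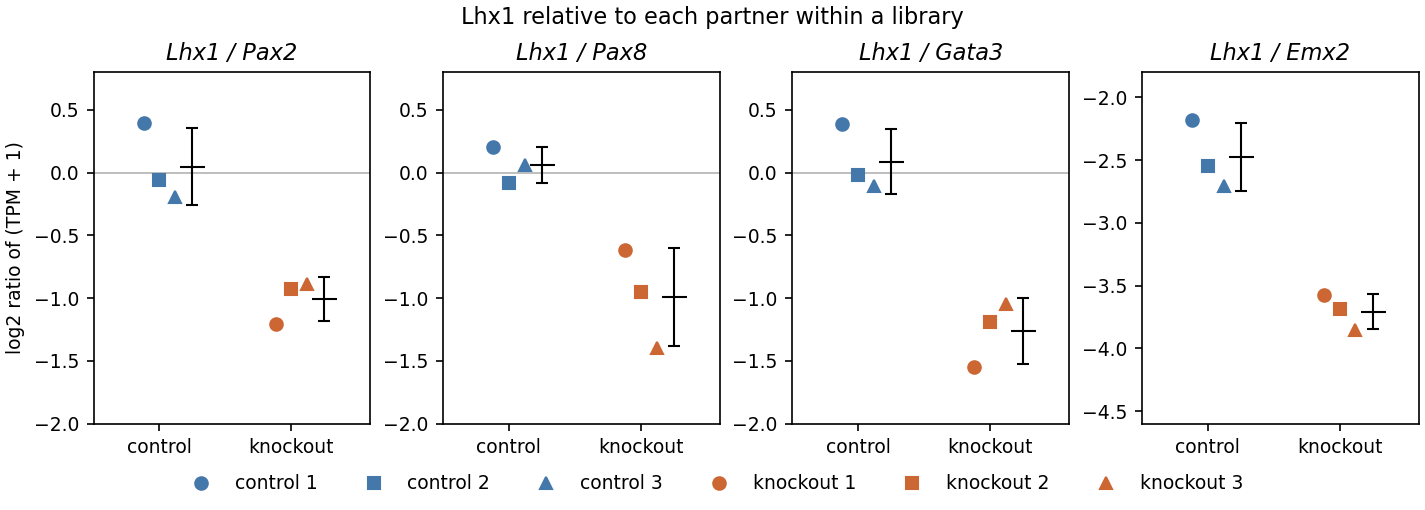
Log2 ratio of Lhx1 to each partner, computed on TPM + 1 (vertical axis; the Emx2 panel has its own range), per library; blue points are controls, orange points knockouts, and black bars mean ± SD of 3. All 3 knockouts lie below all 3 controls in every panel, with mean differences from -1.35 to -1.05.

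The noncoding neighbours Lhx1os and Emx2os were set beside their coding genes. Lhx1os was at 5.95, 5.79 and 4.49 TPM in the controls, against 2.25, 2.36 and 3.31 TPM in the knockouts. The knockouts lay below all controls, at 41.5%, 43.6% and 61.2% of the control mean. The log2 difference was -0.82 (SE 0.19; limma adjusted p = 0.145), which did not pass over all genes, whereas in the authors' deposited table it is -1.04 (adjusted p = 0.00722). Lhx1os rested on 67 to 196 reads per library. Emx2os was at 19.6, 16.4 and 15.4 TPM in the controls, against 13.6, 13.7 and 18.7 TPM in the knockouts, which overlap (-0.16 in log2, SE 0.15; adjusted p = 0.761 by limma). From the RefSeq starts given above, Lhx1 and Lhx1os run away from each other, and the start of Emx2os was not compared. Whether counting used strand is not given in the sources used here. Reads from any parts of such neighbours that do overlap may thus be counted for either gene.

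**Figure D3:**
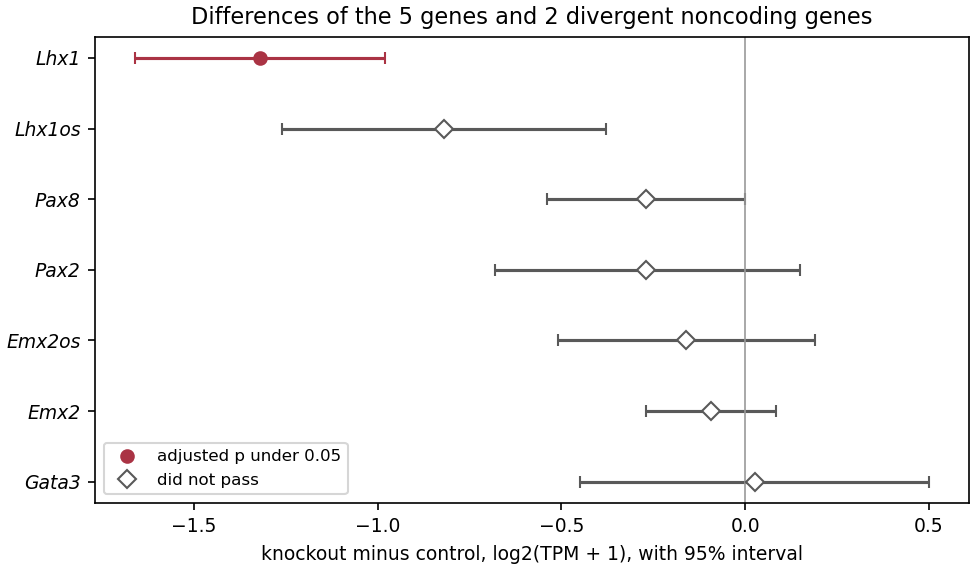
Knockout minus control difference on the log2(TPM + 1) scale (horizontal axis) with 95% intervals from limma; the filled red circle passed an adjusted p of 0.05 and open diamonds did not. Lhx1 lies at -1.32 and Lhx1os at -0.82, and the other 5 lie between -0.27 and 0.027.

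Among proteins that work with these factors, 1 gene passed the test. Of 21 cofactors listed, 20 were tested: 1 fell and the other 19 missed the threshold, where 0.313% of all tested genes were called lower. The median log2 difference was 0.032 against -0.0075 over all genes tested. Tle1, a Groucho-type corepressor that Pax and TCF/LEF factors can recruit, fell from 65.5, 68.5 and 74.7 TPM in controls to 48.1, 48.5 and 49.7 TPM in knockouts (-0.50 in log2, SE 0.072; adjusted p = 0.0325 by limma). The knockouts did not overlap the controls for Tle1 and differed little among themselves. Ldb1, the adaptor that binds the LIM domains of Lhx1, had a log2 difference of -0.017, and its stabilising partner Ssbp3 one of -0.012. Ldb2, the second such adaptor, was at 0.029, and Tle5, a short Groucho-related protein, at 0.28 (limma adjusted p = 0.361). Paxip1, which links Pax2 to histone methyltransferases, was at 0.073, a gene chosen after its value was seen.

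LIM-homeodomain, Pax, GATA and Emx genes other than the members were counted as relatives. Of 24 listed, 17 were in the table and 10 tested: 3 rose and the other 7 missed the threshold, where 0.131% of all tested genes were called higher. Gata4, a factor of the gonadal soma, rose from 17.0, 8.25 and 7.02 TPM to 39.6, 41.2 and 33.2 TPM (1.82 in log2, SE 0.27; adjusted p = 0.0354 by limma). Gata6, expressed in gonadal soma and mesenchyme, rose from 48.5, 47.0 and 48.0 TPM to 67.6, 74.7 and 68.2 TPM (0.54, SE 0.069; limma adjusted p = 0.0199). Lhx9, the LIM-homeodomain factor needed for gonad formation, rose from 6.55, 4.54 and 3.26 TPM to 11.7, 16.5 and 18.5 TPM (1.53, SE 0.24; limma adjusted p = 0.0463). Thus among LIM-homeodomain genes Lhx1 was lower and Lhx9 higher, and Gata4 and Gata6 were higher where Gata3 overlapped. Without knockout 3, 4 relatives were called higher, against 0.563% of all genes, and Lhx9 was not among them.

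Gonadal soma markers were counted beside these relatives. Of 13 listed, 12 were tested, 5 rose and the other 7 missed the threshold, where 0.131% of all tested genes were called higher. Those that rose include Gata4 and Lhx9, which both lists hold, and Nr5a1, Nr0b1 and Cbln1, while Wt1, Sox9 and Cyp26b1 had log2 differences of 0.045, -0.059 and -0.032. Without knockout 3 there were again 5, Amh, Cbln1, Gata4, Nr0b1 and Nr5a1, against 0.563% of all genes called higher. The summed level of the list was 418 to 421 TPM in the controls, and 589, 555 and 501 TPM in knockouts 1 to 3, and none of its genes was at 0 in all libraries. The largest part of that sum is Wt1, at 211, 238 and 237 TPM in the controls and 239, 232 and 237 TPM in the knockouts. Emx2, whose expression reaches the gonadal coelomic epithelium, overlapped between the groups. The part of gonadal cells in the members' levels was not tested.

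Duct epithelium was present in all libraries by its markers. Of 28 markers tested, 1 fell and the other 27 missed the threshold, where 0.313% of all tested genes were called lower. The median log2 difference was -0.049. Krt18 and Krt8, keratins of simple epithelia, had log2 differences of -0.29 and -0.25, and the adhesion gene Epcam one of -0.17 (limma adjusted p = 0.119, 0.193 and 0.484). Krt19, a further keratin, lay the other way at 117, 89.4 and 89.2 TPM in the controls, against 133, 117 and 140 TPM in the knockouts (0.40), and was chosen after its values were seen. The knockouts lay below all controls for 7 of the 28 and above them for 3, against 8.49% and 8.14% of all tested genes. The authors' deposited table calls 2 lower and 2 higher, against 2.17% and 1.38% of its genes. Calb1, a calcium-binding protein gene of the duct, fell from 15.8, 14.6 and 11.3 TPM to 3.81, 6.0 and 4.83 TPM (-1.35, SE 0.19; limma adjusted p = 0.0281). The summed level of the list was 1453 to 1485 TPM in the controls, and 1439, 1331 and 1343 TPM in knockouts, all below the controls. Cdh1, the epithelial cadherin, was at 17.8, 22.3 and 23.5 TPM in the controls, against 26.5, 20.1 and 25.2 TPM in the knockouts, a value chosen after it was seen.

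A further list held 15 duct signalling and differentiation genes that act with or after these factors. Of them 2 fell (Calb1 and Jag1) and the other 13 missed the threshold, where 0.313% of all tested genes were called lower. The median log2 difference was -0.26. The knockouts lay below all controls for 9 of the 15, where this holds for 8.49% of all tested genes. The authors' deposited table calls 6 of these 15 genes lower at that threshold, against 2.17% of its genes. Jag1, a Notch ligand gene of the forming tubules, fell from 55.4, 56.3 and 59.5 TPM to 41.6, 35.3 and 37.3 TPM (-0.57, SE 0.083; limma adjusted p = 0.0325). Wnt4, which drives epithelium formation, was at -0.19 and Spry1, a feedback inhibitor of Ret and fibroblast growth factor signalling, at -0.43 (limma adjusted p = 0.255 and 0.0569). Plac8 was at 0.30 and Cdh16, the kidney cadherin, at -0.048 (limma adjusted p = 0.437 and 0.903). Ret, which depends on Gata3 in the duct, was at 5.93, 4.60 and 8.72 TPM in the controls, against 10.9, 6.32 and 4.54 TPM in the knockouts. It was highest in knockout 1 and lowest in knockout 3, as Gata3 was. Ret was chosen after its values were seen.

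Lhx1 is also active in tubules, so their markers were counted as a further list. It shares Jag1, Dll1 and Lfng with the preceding list, so the counts of the lists are not independent. In each of these shared genes the knockouts lay below all controls. Of 20 tubule and nephron markers, 19 were in the table and 16 tested: 2 fell (Jag1 and Irx1) and the other 14 missed the threshold, with a median log2 difference of -0.37. The knockouts lay below all controls for 8 of the 16. Of all tested genes this holds for 8.49%, and 0.313% were called lower. The authors' deposited table calls 4 genes of this list lower, against 2.17% of its genes. Irx1, an Iroquois factor of the tubules, fell from 3.22, 2.50 and 3.14 TPM to 0.415, 0.364 and 0.820 TPM (-1.37, SE 0.22; limma adjusted p = 0.0454). Osr2, a zinc-finger factor, was at 75.3, 78.5 and 89.0 TPM in the controls, against 51.0, 43.5 and 31.4 TPM in the knockouts (-0.95, SE 0.16; limma adjusted p = 0.0574). Podxl, of podocytes and vessels, was at -0.0066, and Lfng, a Notch modifier, at -0.079. The summed level was 450 to 521 TPM in the controls, and 407, 376 and 437 TPM in knockouts. Without knockout 3, 3 tubule markers were called lower, Irx1, Jag1 and Osr2, against 0.819% of all genes. The part of tubule cells in the level of Lhx1 was not tested.

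**Figure D4:**
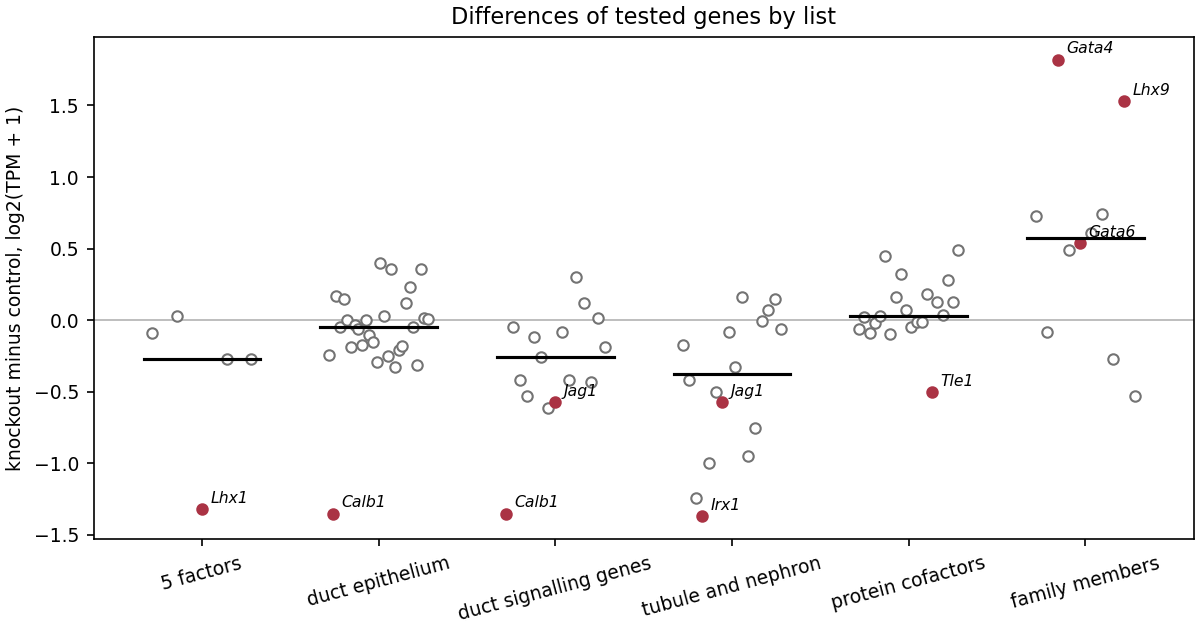
Knockout minus control difference on the log2(TPM + 1) scale (vertical axis) of each tested gene, by list (horizontal axis); filled red points passed an adjusted p of 0.05 and are named, open points did not, and black lines are medians. Lhx1 at -1.32 lies near Calb1 at -1.35 and Irx1 at -1.37, while the median of the duct epithelium list is -0.049.

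Among 32 other urogenital transcription factors, 30 were tested: 1 fell, 1 rose and the other 28 missed the threshold, with a median log2 difference of -0.069. Over all tested genes 0.313% were called lower and 0.131% higher. Tcf21, a factor of the mesenchyme, rose from 186, 205 and 182 TPM to 312, 306 and 268 TPM (0.62, SE 0.079; limma adjusted p = 0.0197), and Irx1 was the one that fell. The abundant factors Wt1, Nr2f2 and Sox11 had log2 differences of 0.045, -0.076 and -0.094. Without knockout 3 the counts were 4 higher (Foxc1, Foxc2, Osr1 and Tcf21) and 2 lower (Irx1 and Osr2). In that omission 0.563% of all genes were called higher and 0.819% lower.

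The partners also differed from 1 knockout embryo to the next. Pax2 was at 108%, 81.2% and 62.8% of its control mean in knockouts 1, 2 and 3, and Gata3 at 143%, 101% and 72.9%. Pax8 ran in the other order, at 71.1%, 83.5% and 92.6%. Markers of sympathetic cells and neural crest, some of which express Gata3, followed the order of Gata3 among the knockouts. The summed level of the 10 markers was 160, 114 and 88.6 TPM in knockouts 1 to 3 and 114 to 125 TPM in controls. Of these, Phox2a was at 9.03, 4.57 and 0 TPM in knockouts 1 to 3, against 1.43 to 2.39 TPM in controls. Of 9 sympathetic and neural crest markers tested, Hand2, a factor of sympathetic neurons and mesenchyme, was called lower (limma adjusted p = 0.0382). Without knockout 3 the genes called higher included Th. Over all tested genes 0.313% were called lower, and in that omission 0.563% were called higher. Of 8 neural tube markers listed, the 4 in the table summed to 42.1, 18.5 and 5.0 TPM in knockouts 1 to 3 and 6.96 to 12.3 TPM in controls. Most of that sum is Tubb3, at 34.6, 14.5 and 4.09 TPM in knockouts 1 to 3, while Pax6 was at 0.149, 0.132 and 0.0612 TPM there. The sum is thus a weak sign of neural tube. The part of these cells in Gata3, Pax2 or Lhx1 was not tested.

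Markers of the Müllerian duct, whose epithelium also expresses several of the factors, included Wnt7a at 20.5, 19.1 and 19.9 TPM in the controls, and 17.0, 13.0 and 13.9 TPM in knockouts (limma adjusted p = 0.226). The 8 genes of that list summed to 521 to 549 TPM in the controls, and 546 to 573 TPM in knockouts, which overlap. The largest part of that sum is Tcf21, whose log2 difference was 0.62, so the sum mixes its rise with falls of other genes. The median log2 difference of the list was -0.33. The knockouts lay below all controls for 3 of the 8 and above them for 1, against 8.49% and 8.14% of all tested genes. By unadjusted limma p under 0.05, 4 were lower and 1 higher. In that list Wnt5a, a Wnt ligand of the mesenchyme, was called lower (limma adjusted p = 0.0467) and Tcf21 higher. Endothelial, steroidogenic, germ cell, macrophage, erythroid and metanephric progenitor lists had 0 genes called in either direction by limma, and without knockout 3 the endothelial gene Kdr and the metanephric gene Itga8 were called lower. In the order named, these lists had 7, 2, 6, 4, 10 and 5 genes tested. At an unadjusted limma p under 0.05, 4 of these genes were lower and 3 higher. The share of all genes at that unadjusted p was not counted. The authors' deposited table calls 2 endothelial genes lower and 1 steroidogenic gene higher, against 2.17% and 1.38% of its genes. Endothelial sums were lower in the knockouts (479 to 543 against 562 to 608 TPM) and steroidogenic sums higher (11 to 18.8 against 6.54 to 8.65 TPM). Metanephric progenitor markers, of a tissue that also expresses Pax2, Pax8 and Lhx1, summed to 194 to 214 TPM in the controls, and 145, 153 and 208 TPM in knockouts 1 to 3. Most of that sum is Itga8, at 178 to 197 TPM in the controls, then 121, 134 and 194 TPM in the knockouts, whereas Gdnf, the ligand of Ret, was at 1.90 to 2.44 TPM in the controls, then 4.85, 4.34 and 1.88 TPM in the knockouts. Of 8 mesenchyme markers, Pdgfrb, a growth factor receptor gene, was called lower, at 212, 233 and 242 TPM in the controls, then 145, 153 and 154 TPM in the knockouts (-0.60; limma adjusted p = 0.0137), and Tcf21 was called higher. Without knockout 3, 3 of these 8 were called lower (Col3a1, Dcn and Pdgfrb) and 2 higher (Foxd1 and Tcf21). In that omission 0.819% of all genes were called lower and 0.563% higher.

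**Figure D5:**
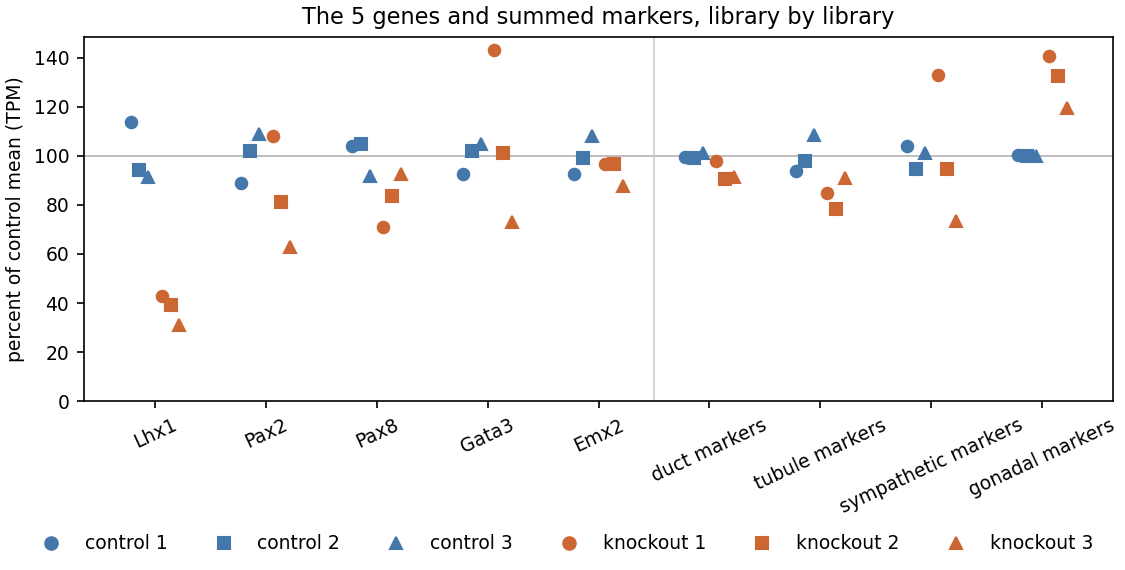
Level of each of the 5 genes and summed TPM of 4 marker lists, as percent of the control mean (vertical axis, from 0), for controls (blue) and knockouts (orange); circles, squares and triangles are embryos 1, 2 and 3. Lhx1 lies at 30.9% to 42.9% in the knockouts, and Gata3 and the sympathetic markers are both highest in knockout 1 and lowest in knockout 3.

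Genes whose profile was most like that of a member were sought by Pearson r of log2(TPM + 1) over the 6 libraries among 11434 genes whose mean reached 5 TPM. These values describe 6 points that share library and genotype. For Lhx1 the closest were Samd5 (r = 0.995), Igfbp2 (0.994), Crabp1 (0.993), Socs3 (0.991), Prdx6 (0.990) and Igfbp3, Ndnf and Lrrtm1 (0.984 each). Of these 8, Igfbp2, Igfbp3, Crabp1, Ndnf and Lrrtm1 were also called lower, as were 0.313% of all tested genes. Lower levels in the knockouts follow from picking genes by likeness to Lhx1, whose groups do not overlap. The count is thus no separate result. Igfbp3 fell from 1298, 1322 and 1335 TPM to 596, 558 and 501 TPM. Ndnf, a secreted neuron-derived factor, fell from 26.4, 23.1 and 24.7 TPM to 12.1, 12.9 and 11.7 TPM (-0.96, SE 0.10; limma adjusted p = 0.00963). For Pax2 the closest were Mtmr4, Slc12a7 and Nectin1 (0.993, 0.993 and 0.992), and for Gata3 Rrp7a, Unc45a and Zc3h18 (0.995, 0.989 and 0.986). For Pax8 they were Tfpi, Zfp1007 and Bdh2 (0.997, 0.993 and 0.989), and for Emx2 Cbarp, Foxp1 and Tgif1 (0.986, 0.984 and 0.983). No gene was among the closest of more than 1 member.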

How the data were processed

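Poly(A) RNA from 6 male mesonephroi was read from both ends, per the labels' protocols. The submitters' processing notes list DESeq2 and the mouse build GRCm39. Names of the aligner, annotation and counter, and its strand setting, were not given in the sources used here. Per the file headers, the authors deposited 1 TPM column per embryo and, for knockout over control, a log2 fold change, a p-value and an adjusted p-value.

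From TPM, limma 3.58.1 (R 4.3.3) with its variance trend was fitted to log2(TPM + 1) of the 17577 genes that reached 1 TPM in 3 or more libraries, with Benjamini-Hochberg adjustment over all of them and a threshold of 0.05. Ratios to Lhx1 were compared by exact permutation tests. Within each gene the 6 values were whole multiples of 1 step per library (20033 of 20033 genes within 0.02 reads; in a narrower search of 1000 genes, 93.5% as deposited and 0.1% after random changes), which gave lower bounds on reads. Chi-square per degree of freedom between libraries of a group was at least 7.87, so none repeats another. The labels do not say whether mice of a group were littermates, and p-values measure the spread between these 6 samples. The fit was tested on simulated data.

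The members and lists were chosen with earlier results of these data known. Named were the 5 members, called genes of each list, some of the 4 others of highest level, and the closest profiles, apart from genes said to be chosen after their values were seen; some genes of the lists are not reported here. Promoter windows are from RefSeq, build GRCm38.p6, matched by symbol for 5 of 5 members. The alternatives were other scalings, pseudocounts, filters and variance models, limma-voom on recovered reads, a block on mouse numbers, and the omission of each embryo.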

Additional observations from a re-analysis of the deposited data

How the results depend on the processing

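The difference of Lhx1 kept its sign in all 17 alternatives and its call in all 11 that kept every embryo (limma adjusted p from 0.00124 to 0.0497, the highest without the mean-variance trend). It lost the call in 4 of 6 omissions of 1 embryo, where the adjusted p ranged from 0.0152 to 0.0791 and the value from -1.41 to -1.20. Pax2, Pax8 and Emx2 kept their sign and did not pass in any of 17, and Gata3 did not pass in any. Gata3 ranged from -0.21 to 0.26 over the omissions and turned negative without knockout 1 (-0.207) and without control 1 (-0.0248). The number of genes called, 78, became 28 without the trend, 17 with the replicate block and 269 with limma-voom on recovered reads, and ranged from 13 to 243 when 1 embryo was left out; the cause was not tested. The 4 ratios of Lhx1 kept their sign in all 9 alternatives each.

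Pairing by mouse number was not seen: deviations of same-numbered embryos correlated at -0.0644, 0.0504 and -0.0512. Of 6 libraries, 2 were closest to their own number. With 3 embryos in a group, this check is too weak to decide whether embryos were paired. With the replicate block Lhx1 was at -1.32 (limma adjusted p = 0.0336), Pax2 at -0.267, Pax8 at -0.272, Gata3 at 0.0273 and Emx2 at -0.0918; with that block the 4 ratios had the same means (exact p = 0.25, the smallest that 3 pairs allow). Median-ratio scaling moved the median of all genes from -0.0075 to 0.00061. Counting error was at most 6.3% for the 5 factors of the level; technical variation other than counting was not measured.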

Other observations

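The LIM-homeodomain genes Isl1 and Isl2, which mark neurons and parts of the mesenchyme, varied widely between knockout embryos. Isl1 was at 12, 10.6 and 13.9 TPM in controls 1 to 3 and at 66.9, 32.9 and 2.44 TPM in knockouts 1 to 3, above the controls in 2 embryos and below them in 1. Isl2 was at 1.5, 0.938 and 1.36 TPM in the controls, against 5.75, 4.13 and 0.544 TPM in the knockouts, in the same order. Neither passed with all embryos (limma adjusted p = 0.859 and 0.642), and both were called higher without knockout 3. Lmx1a, a further LIM-homeodomain gene, was at 19.7, 21.4 and 22.7 TPM in the controls, against 15.7, 13.1 and 14.7 TPM in the knockouts (-0.53 in log2, SE 0.11; adjusted p = 0.111 by limma). Its groups did not overlap, as for Lhx1, and the authors' deposited table gives it an adjusted p of 0.00326. Zfpm2, a cofactor of GATA factors, was at 21.7, 21.0 and 21.4 TPM in the controls, against 24.0, 30.1 and 38.6 TPM in the knockouts (0.49, SE 0.16; limma adjusted p = 0.274). These genes were chosen after their values were seen.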
